A study of Mus musculus with 12 samples.

Results

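The comparison concerns mouse embryonic stem cells in which *Srrm2* was knocked down, harvested at 72 h or at 24 h, and it uses the 6 Srrm2-KD libraries of the 12 polyA+ libraries in the count table. The members were chosen by their labels alone, as the 3 libraries of each time point, and were matched by experiment number. E14tg2a.4 cells were kept in medium with serum and LIF. They were moved to serum-free medium with LIF for 24 h to 72 h before collection, and were transfected with siRNA at 50 nM. The paper does not state the time without serum for each siRNA group. The siRNA targeted *Srrm2* in Srrm2-KD, and in the control Gl2-KD it targeted Gl2, a firefly luciferase gene that mouse cells lack. Cells of the 72 h groups were transfected again with the same siRNA 24 h after the first transfection. The groups were Srrm2-KD at 24 h (n = 3), Srrm2-KD at 72 h (n = 3), Gl2-KD at 24 h (n = 3) and Gl2-KD at 72 h (n = 3). The length of the knockdown, the second transfection, the time in culture and any difference in time without serum therefore cannot be told apart within either siRNA. Knockdown by siRNA is partial, and all libraries come from 1 cell line.

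SRRM2 is a large serine- and arginine-rich protein that scaffolds nuclear speckles, the nuclear bodies where splicing factors gather. Mouse embryonic stem cells keep their identity through transcription factors such as OCT4, SOX2 and NANOG, with LIF and BMP signals from the medium or from the cells themselves. BMP signals induce the Id genes, and Wnt and FGF signals shift the balance between self-renewal and the exit from pluripotency.

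The Srrm2-KD libraries summed to between 73933196 and 153343831 estimated counts, and 19410 of the 42450 listed genes had enough counts to be tested. In a principal component analysis of all 12 libraries, the first component held 54% of the variance and set experiment 1 apart from experiments 2 and 3, so levels are given by experiment. The stem cell label was checked against marker genes. *Pou5f1*, which encodes OCT4, lay between 1149 and 1813 CPM (counts scaled by library total and TMM factor), and the summed level of 10 stem cell markers was 6232 to 7021 CPM at 24 h and 5198 to 7618 CPM at 72 h. Of 7 fibroblast markers 4 passed the filter, with summed levels of 6.62 to 16.9 CPM at 24 h and 3.89 to 23.2 CPM at 72 h, most of which was *Thy1*. The collagen genes *Col1a1*, *Col1a2* and *Col3a1* stayed at or below 0.749 CPM in every Srrm2-KD library. The 7 primitive endoderm markers summed to 2.27 to 4.93 CPM at 24 h and 2.32 to 3.86 CPM at 72 h. EdgeR, DESeq2 and limma-voom called 0 genes of these 3 marker lists, and 3 stem cell, 0 fibroblast and 1 primitive endoderm marker had an unadjusted p below 0.05 in edgeR.

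*Srrm2* itself (chromosome 17, 23790532 to 23824741, GRCm38) was measured at 517, 154 and 200 CPM in experiments 1, 2 and 3 at 24 h and at 461, 182 and 217 CPM at 72 h. The level was lower at 72 h in experiment 1 and higher in experiments 2 and 3, and the groups overlapped. The log2 fold change was 0.05 (standard error 0.14), with an adjusted p of 0.891 (edgeR quasi-likelihood test, Benjamini-Hochberg). In Gl2-KD, *Srrm2* was at 911, 496 and 449 CPM at 24 h and at 962, 479 and 442 CPM at 72 h. The log2 fold change there was 0.00 with an adjusted p of 0.995. The difference between the time changes of the arms was 0.05 (standard error 0.20, unadjusted edgeR p of 0.792). No change in the depth of the knockdown between 24 h and 72 h was detectable.

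Between 24 h and 72 h, 107 genes changed in Srrm2-KD at an adjusted p below 0.05, of which 37 rose and 70 fell. This is 0.551% of the genes tested (0.191% higher and 0.361% lower). The genes that fell included *Id3*, *Bmp4*, *Notum*, *Pdgfc* and *Ntn1*, and those that rose included *Sycp3*, *Rec114*, *Gpx4*, *Ephx1* and *Dcxr*, each described below. Of the 107 genes, 106 moved in the same direction in all 3 experiments, against 16.2% of all genes tested that were higher and 16.9% that were lower in 3 of 3. In 57 of the 107, the 3 levels at 72 h lay wholly outside the 3 levels at 24 h. Over all genes tested, 3.58% had every 72 h level above every 24 h level and 3.9% had every one below. The 107 genes had been chosen by a test of these same libraries with the experiment as a block. Both counts are therefore largely built in and are no separate support for the calls.

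The strength of these calls was limited. No adjusted p was smaller than 0.0317, and 3156 genes had an unadjusted p below 0.05. Omitting a single library left between 0 and 93 calls, and omitting experiment 2 left 0, with 1129 genes at an unadjusted p below 0.05. The calls rest on the spread estimated over all 12 libraries: with the 6 Srrm2-KD libraries fitted alone, edgeR called 0 of 18040 genes, while 1896 had an unadjusted p below 0.05 and the smallest adjusted p was 0.122. In that fit DESeq2 called 417 genes and limma-voom 19. With all 12 libraries, DESeq2 called 1061 genes (498 higher and 563 lower, 2.57% and 2.9% of those tested, 5.47% in all) and limma-voom 259 (97 higher and 162 lower, 0.5% and 0.835%, 1.33% in all), and 105 and 106 of the 107 genes were called by them.

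**Figure D1:**
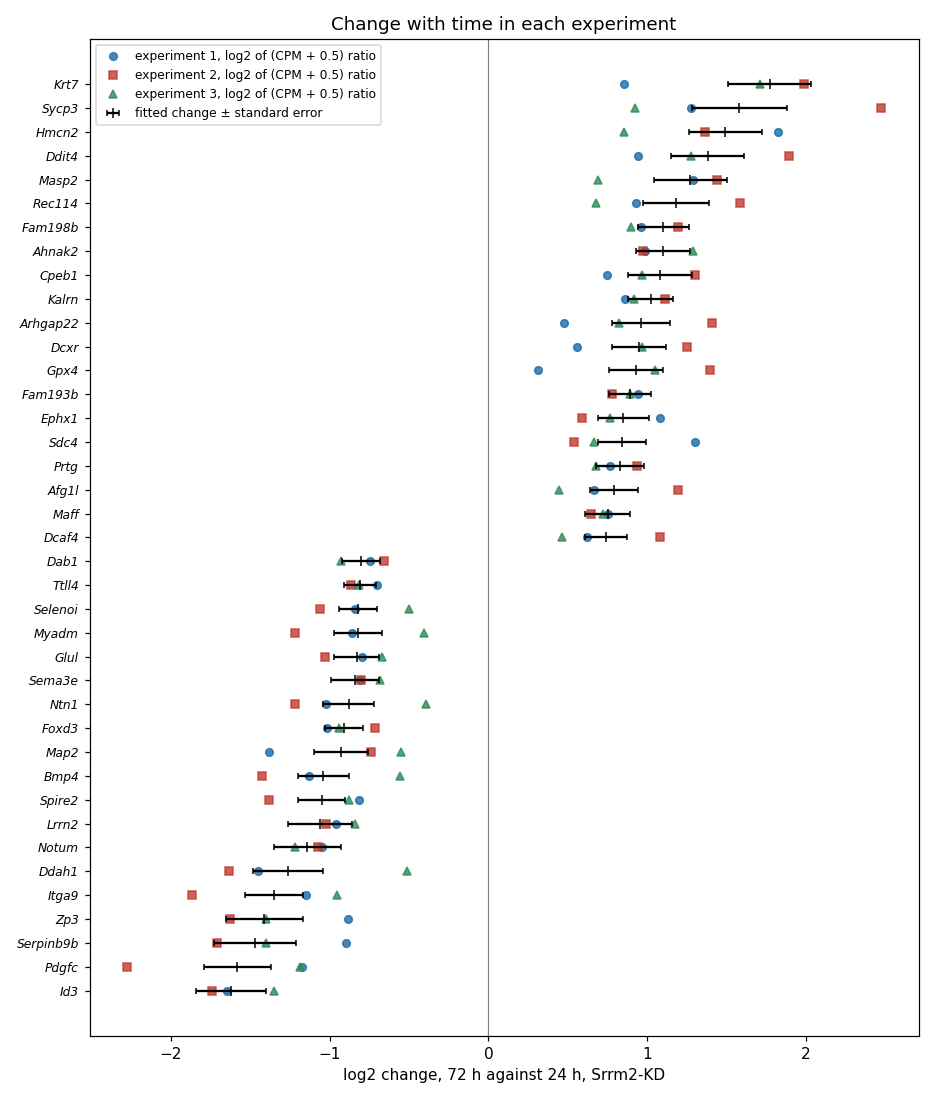
The horizontal axis is the log2 change from 24 h to 72 h in Srrm2-KD for 19 genes that fell and 20 that rose, from the largest changes among those called at a mean of 5 CPM or more. Colored points are the 3 experiments, computed from CPM with a pseudocount of 0.5, and black bars are the fitted change with its standard error. Every point lies on the same side of 0 as its gene's fitted change, because the naming rule required 1 direction in all 3 experiments.

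*Id3* (chromosome 4, 136143497 to 136145755, GRCm38) encodes an inhibitor of basic helix-loop-helix transcription factors. It stood at 30.3, 34.3 and 19.4 CPM at 24 h and at 9.34, 9.91 and 7.32 CPM at 72 h. All 72 h levels lay below all 24 h levels. The log2 fold change was -1.62 (standard error 0.22, adjusted p = 0.0317), so that 32.5% of the level at 24 h was left.

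*Bmp4*, a ligand of the BMP pathway, went from 74.4, 53.3 and 36.9 CPM to 33.8, 19.5 and 24.9 CPM, which gave a log2 fold change at -1.04 (standard error 0.16, adjusted p = 0.0375). The groups did not overlap, and experiment 3 had the smallest fall. *Notum*, a secreted enzyme that inactivates Wnt proteins, went from 52.1, 37.6 and 30.0 CPM to 25.0, 17.6 and 12.6 CPM (log2 fold change -1.14, standard error 0.21, adjusted p = 0.0467). Its levels fell by a similar proportion in each experiment, again without overlap. The growth factor gene *Pdgfc* and the axon guidance genes *Ntn1* and *Sema3e* fell with log2 fold changes of -1.58, -0.88 and -0.84.

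*Foxd3*, a forkhead transcription factor of stem cells and of the neural crest, was at 47.9, 33.0 and 31.0 CPM at 24 h and at 23.4, 19.9 and 15.9 CPM at 72 h. The groups did not overlap. Its log2 fold change was -0.91 (standard error 0.12, adjusted p = 0.0317). *Nr5a2*, a nuclear receptor of the naive state, went from 108, 80.2 and 55.1 CPM to 73.3, 39.2 and 38.4 CPM (log2 fold change -0.69, standard error 0.12, adjusted p = 0.0467). Experiment 1 at 72 h lay within the 24 h range, so the groups overlapped although each experiment fell.

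*Itga9*, an integrin subunit, went from 61.0, 35.7 and 11 CPM to 27.3, 9.42 and 5.43 CPM (log2 fold change -1.35, standard error 0.18, adjusted p = 0.0317). Its groups overlapped, because experiment 3 was low at both times, and each experiment fell. *Glul*, which encodes glutamine synthetase, had the highest level of the named falling genes described here. It stood at 528, 483 and 252 CPM at 24 h and at 304, 236 and 158 CPM at 72 h, for a log2 fold change at -0.83 (standard error 0.14, adjusted p = 0.0440). Its groups overlapped, since experiment 3 was low at both times.

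Of the other falling genes named by the rule, *Spire2*, an actin nucleator, fell by 1.05 on the log2 scale, *Map2*, a microtubule-associated protein, by 0.93 and *Ttll4*, a tubulin-modifying enzyme, by 0.81. *Dab1*, an adaptor of reelin signaling, fell by 0.80. *Zp3*, which encodes a protein of the egg coat, fell by 1.41, the protease inhibitor gene *Serpinb9b* by 1.47 and *Ddah1*, which breaks down an inhibitor of nitric oxide synthase, by 1.26. The phospholipid synthesis gene *Selenoi*, together with *Myadm* and *Lrrn2*, had log2 fold changes of -0.82, -0.82 and -1.06.

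Among the genes that rose, *Sycp3*, a component of the synaptonemal complex of meiotic chromosomes, went from 58.7, 43.1 and 138 CPM to 143, 241 and 262 CPM. All 72 h levels were above all 24 h levels, and the rise was largest in experiment 2. The log2 fold change was 1.58 (standard error 0.30, adjusted p = 0.0492). *Rec114*, needed for meiotic double-strand breaks, had a log2 fold change of 1.18, and *Cpeb1*, a regulator of poly(A) tail length, one of 1.08.

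*Ddit4*, a stress-induced inhibitor of mTORC1, was at 33.2, 34.2 and 72.9 CPM at 24 h and at 64.3, 128 and 177 CPM at 72 h (log2 fold change 1.38, standard error 0.23, adjusted p = 0.0445). Only experiment 1 at 72 h lay within the 24 h range. *Gpx4*, which reduces lipid hydroperoxides, went from 285, 349 and 448 CPM to 354, 920 and 927 CPM (log2 fold change 0.93, standard error 0.17, adjusted p = 0.0467). Experiment 1 rose least and remained within the 24 h range. *Ephx1*, an epoxide hydrolase, and *Dcxr*, a carbonyl reductase, had log2 fold changes of 0.85 and 0.95.

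*Sdc4*, a heparan sulfate proteoglycan, stood at 22.4, 52.8 and 78.6 CPM at 24 h and at 56.0, 77.0 and 125 CPM at 72 h (log2 fold change 0.84, standard error 0.15, adjusted p = 0.0467). The groups overlapped because the experiments differed in level. *Hmcn2*, which encodes a hemicentin of the extracellular matrix, went from 3.46, 3.42 and 4.50 CPM to 13.5, 9.58 and 8.54 CPM without overlap (log2 fold change 1.49, standard error 0.23, adjusted p = 0.0358). The keratin gene *Krt7* had the largest rise by the rule, with a log2 fold change of 1.77, from a low level of 1.06 to 4.83 CPM at 24 h. The genes *Kalrn* and *Arhgap22* had log2 fold changes of 1.02 and 0.96, and the complement protease gene *Masp2* one of 1.27. *Fam198b*, *Ahnak2*, *Fam193b*, *Prtg*, *Afg1l*, *Maff* and *Dcaf4* had log2 fold changes between 0.74 and 1.10.

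**Figure D2:**
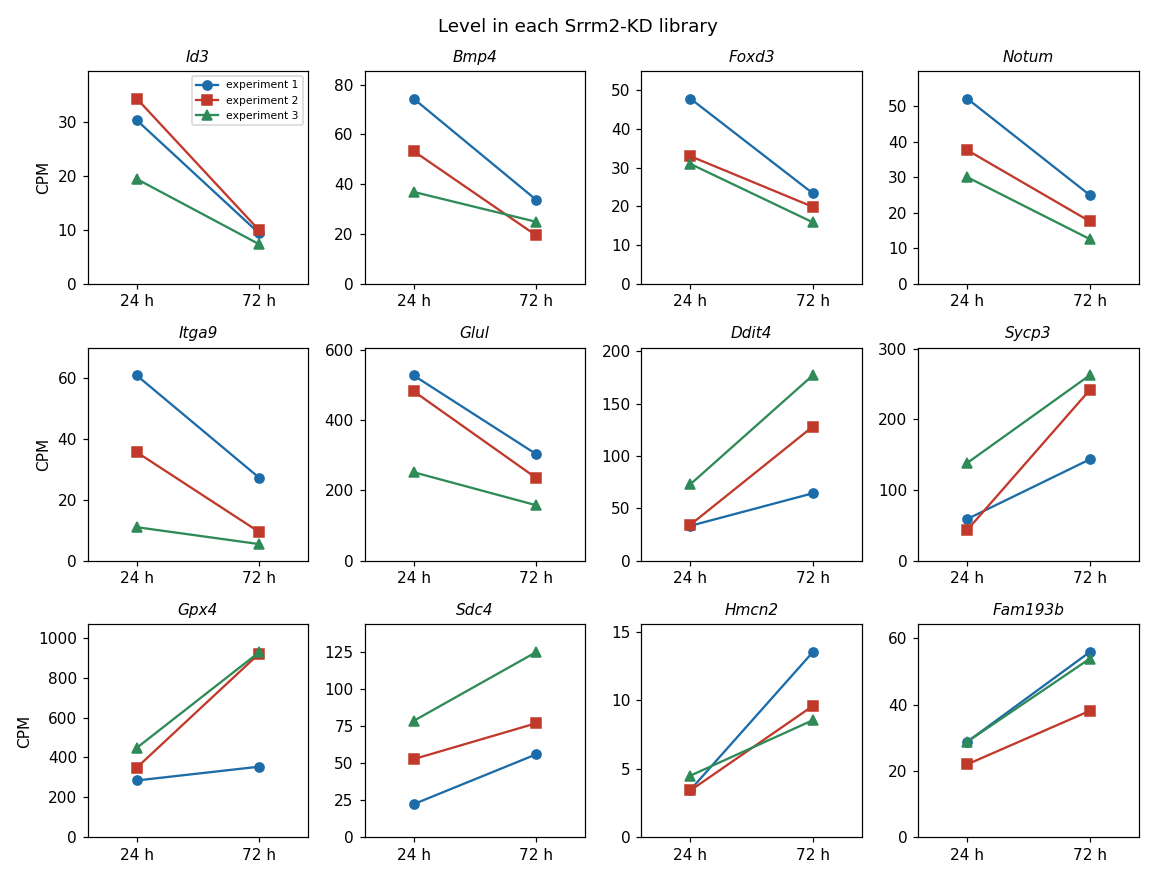
The vertical axes are CPM in each Srrm2-KD library at 24 h and 72 h for 12 of the genes called, with lines joining the libraries of an experiment. The first 6 panels fell and the last 6 rose in every experiment, as the naming rule required. Within *Gpx4*, experiment 1 shows the smallest step, from 285 to 354 CPM.

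To show sequence next to these genes, the 250 bases before the RefSeq start (GRCm38.p6) were searched on both strands for 5 short motifs, which could be looked up for 17 of the 20 named falling and 19 of the 20 named rising genes. The E-box CACGTG was present in 3 of 17 falling and 3 of 19 rising genes, against 6.86% of the 27025 genes with a promoter in the table. GCGGGAA, an E2F-type motif, was present in 1 and 2 genes (4.38% of all), CTTTGAT, a TCF motif, in 1 and 0 (3.72%), GGCGCC, a GC-rich SMAD motif, in 2 and 2 (10.8%) and TGACGT, the core of a cAMP response element, in 1 and 2 (7.29%). The promoters of *Sycp3*, *Foxd3* and *Bmp4*, each with an E-box, are printed because they belong to genes described above, with every match to the 5 motifs in capitals. For *Sycp3* the last 18 bases before the RefSeq start are left out, since they lie inside the GENCODE gene.
*Sycp3*, chr10:88459337-88459568, plus strand: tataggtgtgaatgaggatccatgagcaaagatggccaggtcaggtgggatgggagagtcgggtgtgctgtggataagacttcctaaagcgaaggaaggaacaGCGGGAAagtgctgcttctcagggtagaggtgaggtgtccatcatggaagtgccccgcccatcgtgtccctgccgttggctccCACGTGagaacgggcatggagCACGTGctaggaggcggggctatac
*Foxd3*, chr4:99656049-99656298, plus strand: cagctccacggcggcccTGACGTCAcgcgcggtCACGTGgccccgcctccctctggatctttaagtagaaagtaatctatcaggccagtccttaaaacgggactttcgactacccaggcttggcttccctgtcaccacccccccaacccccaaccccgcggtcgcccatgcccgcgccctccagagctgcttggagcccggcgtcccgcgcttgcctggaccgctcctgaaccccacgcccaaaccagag
*Bmp4*, chr14:46390670-46390919, minus strand: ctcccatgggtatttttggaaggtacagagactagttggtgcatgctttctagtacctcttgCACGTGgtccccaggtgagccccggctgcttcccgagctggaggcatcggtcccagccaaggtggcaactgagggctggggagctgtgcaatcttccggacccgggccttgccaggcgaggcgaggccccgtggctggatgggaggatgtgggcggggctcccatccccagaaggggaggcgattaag
The capitals in *Foxd3* include TGACGT and its reverse complement, which overlap. A match describes the letters in the window and not a bound site.

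The lists of genes fixed for pathways of these cells show where the other members stood. Of 22 lists, 6 had a gene called by edgeR, and each of these had 1. Over all genes tested the median log2 fold change was 0.00, 16.3% had an unadjusted p below 0.05 in edgeR, 5.47% were called by DESeq2, and 16.2% were higher and 16.9% lower in 3 of 3 experiments. The counts of each list stand against these shares, and no list was tested against other genes.

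Of 10 Id genes and BMP-SMAD targets, 1 fell (*Id3*) and the median was -0.56. *Id1* and *Id2* had log2 fold changes of -1.04 each with standard errors of 0.44 and 0.40 and did not pass (adjusted p = 0.275 and 0.23), and *Smad7*, an inhibitor of the pathway, had one of -0.06. At an unadjusted edgeR p below 0.05, 4 of the 10 were lower and 1 higher. The higher one, *Smad9*, had low levels, at 0.136, 0.201 and 0.159 CPM at 24 h and 0.218, 0.515 and 0.546 CPM at 72 h. It rose in every experiment, by 1.28 on the log2 scale in the fit, but was not called (adjusted p = 0.17). Its value in Gl2-KD was -0.03. The difference between the arms was 1.31 (standard error 0.58, unadjusted edgeR p of 0.0433) and did not pass the adjustment. DESeq2 called 1 of the 10. Of 11 Wnt targets and TCF factors, 1 fell (*Notum*), the median was -0.52, and 6 were lower and 3 higher in all 3 experiments. At an unadjusted edgeR p below 0.05, 5 were lower and 2 higher. The 2 higher were *Rnf43* and *Tcf7*, with log2 fold changes of 1.06 and 0.31 (adjusted p = 0.201 and 0.227). DESeq2 called 3, all lower: *Notum*, *Sp5* and *Tcf7l2*. *Axin2*, a feedback inhibitor of Wnt signaling, had a value of -0.42 (standard error 0.14, adjusted p = 0.186).

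Among 13 naive pluripotency factors, 1 fell (*Nr5a2*), with a median of -0.22. In all 3 experiments 5 were lower (38.5%, against 16.9% of all genes) and 0 higher. At an unadjusted edgeR p below 0.05, 6 were lower (46.2%, against 16.3%) and 0 higher. *Nanog*, *Esrrb* and *Klf4* had log2 fold changes of -0.17, -0.13 and -0.35 (adjusted p = 0.424, 0.602 and 0.28). DESeq2 called 2, *Nr5a2* and *Nr0b1*. Of 8 core pluripotency factors edgeR called 0 and DESeq2 1 (*Sall4*), with a median of -0.16 and 3 members at an unadjusted p below 0.05. Of these 8, 4 were lower (50%, against 16.9%) and 0 higher in all 3 experiments. Among 15 formative and primed factors, *Foxd3* fell, the median was -0.22, and DESeq2 called 3 (*Foxd3*, *Tcf7l1* and *Tcf15*, all lower). In all 3 experiments 6 were lower (40%, against 16.9% of all genes) and 0 higher. At an unadjusted edgeR p below 0.05, 4 were lower and 1 higher. *Otx2*, which marks the exit from the naive state, had a value of 0.91 with a standard error of 0.36 and did not pass (adjusted p = 0.24). It rose in experiments 1 and 2 and not in experiment 3, at 184 CPM at 24 h and 180 CPM at 72 h. Of 21 germ layer and extraembryonic markers tested edgeR called 0, with 2 at an unadjusted p below 0.05, and DESeq2 1 (*Pax6*, lower).

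Of 15 ERK targets edgeR called 0 (4 at an unadjusted p below 0.05), and DESeq2 called 3. *Myc* went from 46.2, 45.2 and 29.1 CPM to 29.7, 17.1 and 10.7 CPM, a log2 fold change at -1.18 (standard error 0.25). Its adjusted p was 0.0646 in edgeR and 0.000216 in DESeq2. The other members DESeq2 called were *Spred1*, lower, and the ERK phosphatase gene *Dusp4*, higher. For the LIF and STAT3 pathway edgeR called 0 of 12 and DESeq2 2, *Lif*, higher, and *Gbx2*, lower, and 2 had an unadjusted p below 0.05. The 11 genes of the Nodal pathway gave 0 calls with both tools, a median of 0.07 and 1 gene at an unadjusted p below 0.05.

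*Ddit4* was the 1 gene called of 18 in the ATF4 response, and the median was 0.04. *Ddit3*, an ATF4-dependent stress factor, had a value of 0.97 with a standard error of 0.36 (adjusted p = 0.225), and *Asns*, asparagine synthetase, one of 0.34. Of 10 fatty acid synthesis genes edgeR called 0, with 5 at an unadjusted p below 0.05 and 6 lower in all 3 experiments. DESeq2 called 4, all lower: *Acaca*, *Fasn*, *Scd1* and *Scd2*. *Fasn*, fatty acid synthase, went from 160, 182 and 126 CPM to 117, 121 and 84.6 CPM without overlap (log2 fold change -0.54, standard error 0.11, adjusted p = 0.0642). The 21 cholesterol genes gave 0 calls with either tool and a median of -0.02, with 2 at an unadjusted p below 0.05. Of 20 glycolysis and hypoxia genes edgeR called 0, with a median of 0.24. An unadjusted p below 0.05 was found for 5, all higher (25% of the list, against 16.3% of all genes), and DESeq2 called 1, *P4ha1* (5%, against 5.47%).

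For 15 p53 targets the median was 0.28, edgeR called 0, 5 had an unadjusted p below 0.05, and 7 were higher in all 3 experiments. DESeq2 called 3, all higher: *Bbc3*, *Ccng1* and *Trp53inp1*. *Ccng1*, a cyclin gene induced by p53, went from 149, 177 and 187 CPM to 297, 332 and 228 CPM without overlap (log2 fold change 0.73, standard error 0.15, adjusted p = 0.0645). *Cdkn1a*, which encodes p21, had a log2 fold change of 0.07. Of 11 germline genes tested, *Sycp3* rose, the median was 0.34, and DESeq2 called 4, all higher (*Sycp3*, *Mov10l1*, *Ddx4* and *Mael*).

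Of 21 extracellular matrix and integrin genes edgeR called 0, and the median was -0.32. An unadjusted p below 0.05 was found for 7 (33.3% of the list, against 16.3% of all genes), and 11 were lower in all 3 experiments (52.4%, against 16.9%) and 0 higher. DESeq2 called 6, all lower (28.6%, against 5.47%). *Sparc*, a matricellular protein gene, went from 95.5, 161 and 116 CPM to 48.9, 59.8 and 94.5 CPM (log2 fold change -0.91, standard error 0.20, adjusted p = 0.0825), and *Col18a1* had a value of -0.55 (adjusted p = 0.0728). For 15 SRF and actin genes edgeR called 0 (4 at an unadjusted p below 0.05) and DESeq2 1 (*Actb*, lower), with a median of -0.37. Of 17 interferon-stimulated genes edgeR called 0 (4 at an unadjusted p below 0.05), the median was 0.06, and DESeq2 called *Ddx58* and *Oas1a*, lower, and *Bst2*, higher.

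The 9 genes of DNA methylation gave 0 calls by edgeR, 4 at an unadjusted p below 0.05 and 1 by DESeq2 (*Dnmt3l*, lower). Of 16 SRRM family and nuclear speckle genes edgeR called 0 (5 at an unadjusted p below 0.05) and DESeq2 1 (*Srsf2*, lower), with a median of 0.02. *Srrm1* had a value of -0.25 (standard error 0.12, adjusted p = 0.325). The 19 mitosis genes gave 0 calls by edgeR and by DESeq2 and 0 genes at an unadjusted p below 0.05, with a median of -0.01. The 13 mitochondrially encoded genes gave 0 calls by both tools with a median of 0.06 and 2 genes at an unadjusted p below 0.05.

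**Figure D3:**
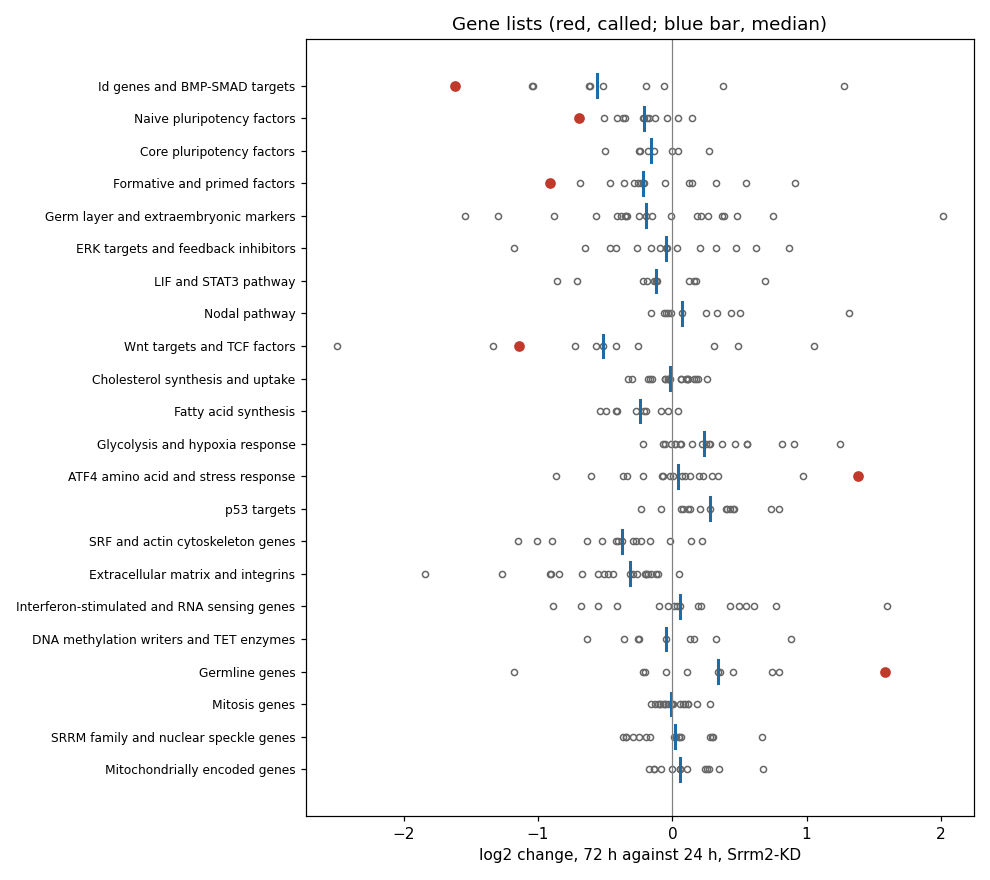
Each circle is a gene of a list, placed by its log2 change from 24 h to 72 h in Srrm2-KD. Filled red circles passed the adjusted threshold in edgeR, and blue bars mark the median of the list. Among these 22 lists, which leave out the cell type markers, the Id and Wnt lists have the lowest medians (-0.56 and -0.52), and 6 lists hold a red circle.

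The Gl2-KD libraries, fitted in the same model, show the change with time without *Srrm2* knockdown. There 282 genes changed (145 higher and 137 lower, 0.747% and 0.706% of those tested, 1.45% in all). Of the 107 genes called in Srrm2-KD, 69 were called in Gl2-KD as well, which is 64.5% of the first set and 24.5% of the second. All 69 had the same direction, and 106 of the 107 genes moved in the same direction in both arms (99.1%, against 73.9% over all genes tested). For the 70 genes that fell, the median log2 fold change was -0.98 in Srrm2-KD and -0.92 in Gl2-KD, and for the 37 that rose it was 1.05 and 1.03. The Srrm2-KD change had been used to choose the genes, and the Gl2-KD change had not. The Gl2-KD libraries did enter the spread and the experiment terms of the same fit. The agreement between the arms is therefore not independent of the choice. *Id3* had a log2 fold change of -2.40 in Gl2-KD, *Foxd3* of -1.31, *Bmp4* of -1.10 and *Sycp3* of 1.39. The differences, Srrm2-KD minus Gl2-KD, were 0.78, 0.40, 0.07 and 0.19, so *Id3* and *Foxd3* fell less in Srrm2-KD. Their unadjusted edgeR p-values were 0.0271 and 0.0433, and no difference passed the adjustment.

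**Figure D4:**
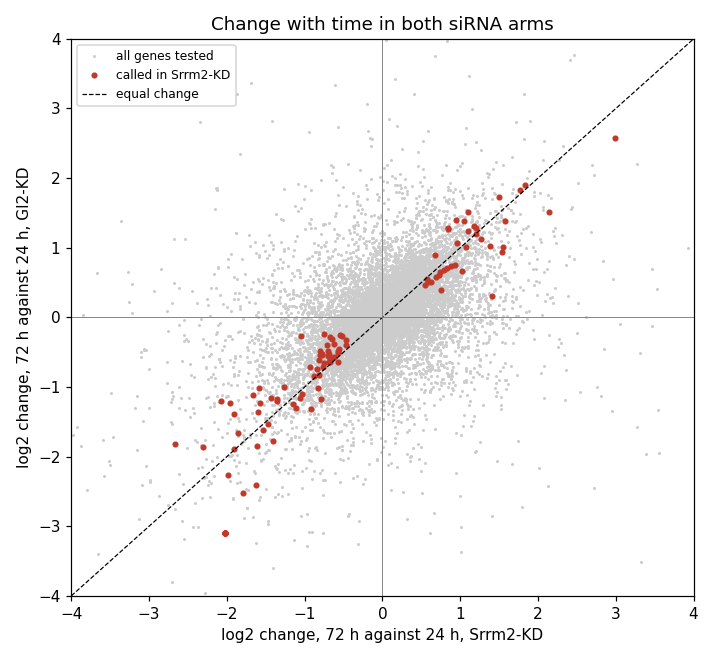
The horizontal axis is the log2 change from 24 h to 72 h in Srrm2-KD and the vertical axis that in Gl2-KD, both limited to 4 units on each side. Grey points are all genes tested, red points the genes called in Srrm2-KD and the dashed line marks equal change. Of the 107 red points, 106 have the same direction in both arms, and *Wdr7*, *Cyp2c69* and *Tsc2* lie outside the axes.

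Whether the change with time differed between the arms was tested directly, as the difference of the 2 time changes. EdgeR called 0 of 19410 genes (0%), and 319 (1.64%) had an unadjusted p below 0.05. Limma-voom called 0, and DESeq2 called 2, both of them more negative in Srrm2-KD. The smallest unadjusted p at a mean of 5 CPM or more was that of *Eif4g3*, a translation initiation scaffold gene. It went from 61.6, 61.2 and 46.2 CPM to 49.8, 41.0 and 43.5 CPM in Srrm2-KD, and from 62.2, 55.9 and 49.1 CPM to 77.4, 76.0 and 60.6 CPM in Gl2-KD. It was lower at 72 h in all 3 experiments in Srrm2-KD and higher in all 3 in Gl2-KD. The difference was -0.68 on the log2 scale (standard error 0.14, unadjusted edgeR p of 0.000598, adjusted p of 1).

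*Spire2* went from 22.9, 19.9 and 15.6 CPM to 12.8, 7.34 and 8.25 CPM in Srrm2-KD and from 21.0, 17.0 and 14.4 CPM to 15.7, 15.7 and 11.8 CPM in Gl2-KD. It was the 1 gene called in Srrm2-KD among the 10 named for the difference, with log2 fold changes of -1.05 and -0.27 in the 2 arms (difference -0.78, standard error 0.21, unadjusted edgeR p of 0.00306, adjusted p of 1). *Ephx2*, an epoxide hydrolase, and *Abcg1*, a cholesterol exporter, rose in Gl2-KD with log2 fold changes of 0.69 and 0.76, and had values of 0.10 and 0.26 in Srrm2-KD. *Halr1*, *Dgkz*, *Calb2*, *Pnkd*, *Adck1* and *Klhl26* had unadjusted p-values from 0.00715 to 0.0119. None of the 10 passed the adjustment, so a different course of these genes in the 2 arms is not established.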

How the data were processed

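The authors prepared stranded polyA+ libraries from 3 independent experiments, sequenced them as paired-end reads and estimated transcript levels with Kallisto (0.46.1 in the submitters' processing notes, with the build mm10). The deposited values are estimated counts per gene, unscaled. Totals ranged from 73933196 to 153343831, and in each library 33.76% to 42.97% of its values were not whole. Counts were rounded. Symbols were found for 42156 of 42450 identifiers, and positions were taken from GENCODE M21 (GRCm38).

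Analysis used R 4.3.3 and edgeR 4.0.16 with filterByExpr (minimum count 10, minimum total 15), TMM scaling and 1 quasi-likelihood fit (glmQLFit with legacy=TRUE, then glmQLFTest) of all 12 libraries with a term per group and the experiment as a block. The authors used the RNA processing day as a covariate, which the sources used here do not give by library. Calls needed an adjusted p (Benjamini-Hochberg) below 0.05. DESeq2 1.42.0 and limma-voom (limma 3.58.1) served as alternatives, as did other scalings, filters and left-out libraries. Pairing by experiment was checked on residuals from the group means, across genes. Same-numbered libraries of different groups correlated at 0.509 to 0.899 (18 pairs) and others at -0.771 to 0.408 (36 pairs). Because the residuals were centred within groups, positive values for same-numbered libraries push the others down. The gap between the ranges is therefore partly built in. The fit for the change in Srrm2-KD, with each of these tools, was run on simulated data with known changes, and the other comparisons were not simulated.

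Named genes are *Srrm2*, the 20 largest changes in each direction among called genes at 5 CPM or more with 1 direction in all 3 experiments and no predicted-gene symbol, list members, and the 10 smallest p-values for the difference between arms. A gene that the rule names is not reported here. The members and lists were chosen with earlier results of these data known. Single-cell and splicing data were not analysed here.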

Additional observations from a re-analysis of the deposited data

How the results depend on the processing

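The number of genes called in Srrm2-KD depended on the setting. Against 107 genes, DESeq2 called 1061, limma-voom 259, edgeR with legacy=FALSE 279, edgeR with no filter on low counts 212 and edgeR with at least 10 counts in every library 176, while RLE factors, library totals and robust=TRUE stayed within 1.5 times. With no replicate block for the experiment edgeR called 0 (663 at an unadjusted p below 0.05), and the 6 Srrm2-KD libraries alone gave 0 in edgeR and, as alternatives chosen after seeing the data, 417 in DESeq2 and 19 in limma-voom. Leaving out an experiment or a library gave 0 to 135 calls, with 1129 to 3904 genes at an unadjusted p below 0.05. The count dropped to 0 when experiment 2 was omitted, and also on omitting a single library, which was that of experiment 1 or 3 for Gl2-KD 24 h, of experiment 1 or 2 for Srrm2-KD 24 h, or of experiment 2 for Srrm2-KD 72 h. Omitting Gl2-KD 24 h or Gl2-KD 72 h of experiment 2 gave 16, Gl2-KD 72 h of experiment 1 gave 43, Srrm2-KD 24 h of experiment 3 gave 15, and Srrm2-KD 72 h of experiments 1 and 3 gave 33 and 8. The cause was not tested. The 40 named genes kept their direction in all 27 settings, and their call in 469 of 1080 combinations of gene and setting. The naming rule had required a call and 1 direction in all 3 experiments, so the kept direction was largely built in.

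For the difference between arms, against 0 calls, DESeq2 gave 2, no filter gave 1, and leaving out libraries or experiments gave 0 to 2. In Gl2-KD, against 282 calls, DESeq2 gave 1338, limma-voom 482, at least 10 counts in every library 476, legacy=FALSE 624, no replicate block 0 and the Gl2-KD libraries alone 158, and leaving out libraries or experiments gave 0 to 387. Library totals gave 111 higher and 158 lower genes there, against 145 and 137. *Srrm2*, at 0.05, turned to -0.02 with no replicate block and ranged from -0.12 to 0.21 when experiments or libraries were left out. With 3 libraries a group, smaller changes may not be detectable.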

Other observations

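Some of the 107 calls rest on values that deserve a second look, and these genes were chosen after their values were seen. Of the 107 genes, 34 had a mean under 5 CPM over the Srrm2-KD libraries, and 6 predicted genes (*Gm13691*, *Gm13693*, *Gm13694*, *Gm13696*, *Gm13697* and *Gm13698*) had identical values in all 12 libraries, from a mean of 0.873 CPM at 24 h to 0.199 CPM at 72 h in Srrm2-KD. *Wdr7* was estimated at 1.00, 1.52 and 0.349 CPM at 24 h in Srrm2-KD and listed at 0 in all 3 libraries at 72 h, where a count of 0 allows up to 0.0187, 0.0396 and 0.0409 CPM by counting error. In Gl2-KD it was listed at 0, 0.214 and 0.237 CPM at 24 h and at 0.546, 0.72 and 1.02 CPM at 72 h, and it was 1 of the 2 genes, with *Gbp4*, that DESeq2 called for the difference between arms. *Tsc2* was at 0 in all 3 Srrm2-KD libraries at 24 h and at 0, 0.0924 and 8.10 CPM at 72 h, so its call rested on experiment 3.

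Of genes outside the naming rule, *Zscan4d*, a gene of the transient state of stem cells that resembles the early embryo, was at 5.42, 6.11 and 1.68 CPM at 24 h and at 1.11, 1.70 and 0.477 CPM at 72 h in Srrm2-KD. Its groups overlapped although each experiment fell, because 1.70 CPM at 72 h lay just above 1.68 CPM at 24 h. Its log2 fold change was -1.98, against -2.27 in Gl2-KD. *Suv39h1*, a histone H3 methyltransferase gene, rose with a log2 fold change of 0.68, and *Odc1*, the first enzyme of polyamine synthesis, *Cdk6*, a kinase of the cell cycle, and *Rcor2*, a corepressor, fell with values of -0.47, -0.68 and -0.57.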
